A study of Mus musculus with 48 samples.

Results

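Mitochondrial ribosomal protein genes are the nuclear genes whose products, made in the cytosol and imported, build the ribosome inside mitochondria. They were taken here as the protein-coding rows of the count table whose symbol begins with Mrpl or Mrps followed by a number. The rule found 77 of 47729 genes, of which 22048 were protein-coding. By symbol 48 of the 77 belong to the large subunit (Mrpl) and 29 to the small subunit (Mrps). They lie on 17 chromosomes, and 5 pseudogene rows with such symbols were left out. Mrpl58 stands in the table under its older symbol Ict1, which the rule did not match.

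Poly(A) RNA of snap-frozen fat from male mice was sequenced in 48 libraries, 4 in each of 12 groups. The groups were brown fat (BAT), subcutaneous fat (SFAT) and visceral fat (EFAT) of Cth-/- mice on CysF, a diet without cystine, of Cth-/- mice on the control diet CTRL, of Cth+/+ mice on CysF and of Cth+/+ mice on CTRL. Each diet was given for 6 days. Cth encodes cystathionine gamma-lyase, which makes cysteine from cystathionine, so that Cth-/- mice on CysF lack both dietary cystine and this route to cysteine. The labels give neither a strain nor an age for these groups, and they do not tell whether libraries of different depots came from the same animals. P-values therefore measure the spread between libraries.

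The mitochondrial ribosome translates the few proteins encoded by mitochondrial DNA, all of them core subunits of the respiratory chain and ATP synthase. Its large subunit holds the peptidyl transferase centre and the exit tunnel, and its small subunit holds the decoding centre. Some of its proteins descend from bacterial ribosomal proteins, while others are found in mitochondria alone. Brown fat, which burns fuel for heat, is among the tissues richest in mitochondria.

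Of the 77 genes, 68 had a promoter window in RefSeq (build GRCm38.p6), running from 250 bases before the start site to 50 after it. Short sequences known as binding motifs of regulators of nuclear mitochondrial genes were searched on both strands: the NRF1 core CGCATGCG, the ETS and GABP motif CCGGAAGT and the YY1 motif AAGATGGC. The YY1 letters were in the windows of 12 of 68 genes (17.6%), against 3.6% of 17492 genes. The ETS letters were in those of 12 genes (17.6%), against 5.7% of all genes, and the NRF1 core in those of 7 genes (10.3%), against 2.8%. In all, 29 genes had at least 1 of the motifs and 39 had none. None of the motifs contains another. A match describes the letters and is not evidence of binding. These 4 windows are shown because their genes mark contrasting patterns below: Mrps27 is among the genes with the largest excess in brown fat and holds a pair of motifs, Mrpl9 rose with the diet in SFAT and holds the NRF1 core, Mrps18a rose in both white depots, and Mrpl49 rose in neither and fell in EFAT. Capitals mark the motif, and each window is written 5′ to 3′ on the strand of its gene.
Mrps27, chr13:99344536-99344835, plus strand, ETS motif on the reverse strand 49 bases before the start site and YY1 motif 14 bases after it: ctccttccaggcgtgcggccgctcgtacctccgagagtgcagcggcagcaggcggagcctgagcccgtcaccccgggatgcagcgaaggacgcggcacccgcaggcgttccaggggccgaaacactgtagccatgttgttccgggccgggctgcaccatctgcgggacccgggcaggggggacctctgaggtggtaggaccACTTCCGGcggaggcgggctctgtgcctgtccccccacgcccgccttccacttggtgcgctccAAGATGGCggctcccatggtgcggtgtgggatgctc
Mrpl9, chr3:94443086-94443385, plus strand, NRF1 core 27 bases before the start site: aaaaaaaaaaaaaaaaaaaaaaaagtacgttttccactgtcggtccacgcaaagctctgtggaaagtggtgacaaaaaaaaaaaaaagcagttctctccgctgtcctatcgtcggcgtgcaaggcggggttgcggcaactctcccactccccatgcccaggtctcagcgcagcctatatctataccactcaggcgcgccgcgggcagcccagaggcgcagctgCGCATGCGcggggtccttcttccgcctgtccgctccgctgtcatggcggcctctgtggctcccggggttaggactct
Mrps18a, chr17:46110754-46111053, plus strand, YY1 motif 11 bases after the start site: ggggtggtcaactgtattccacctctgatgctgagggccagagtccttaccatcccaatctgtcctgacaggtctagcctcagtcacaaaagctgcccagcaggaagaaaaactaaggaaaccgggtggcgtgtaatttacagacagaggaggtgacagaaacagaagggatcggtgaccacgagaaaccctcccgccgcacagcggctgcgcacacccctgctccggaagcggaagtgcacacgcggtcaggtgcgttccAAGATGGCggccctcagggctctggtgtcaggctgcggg
Mrpl49, chr19:6057706-6058005, minus strand, YY1 motif 16 bases after the start site: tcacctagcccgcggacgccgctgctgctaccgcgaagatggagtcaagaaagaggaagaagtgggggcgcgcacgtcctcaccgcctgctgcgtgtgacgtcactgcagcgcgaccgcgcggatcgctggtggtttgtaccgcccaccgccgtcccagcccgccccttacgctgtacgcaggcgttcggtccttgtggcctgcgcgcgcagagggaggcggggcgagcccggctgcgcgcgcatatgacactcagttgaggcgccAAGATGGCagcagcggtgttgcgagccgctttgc

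Libraries held 22067552 to 46031102 counts in BAT, 16245822 to 39001433 in SFAT and 18711864 to 36110236 in EFAT. All 77 genes passed the filter on low counts in every fit, and the lowest count of any of them in any library was 100. Cth itself had 0 to 6 counts in the 24 Cth-/- libraries, against 8 to 389 in the 24 Cth+/+ libraries. Transcripts of mitochondrial DNA took 21.78 to 45.74% of the counts in BAT, 7.055 to 31.28% in SFAT and 4.819 to 14.69% in EFAT. Libraries also fell into set A, with the pseudogene Gm43512 below 0.1 CPM, and set B, with it at or above 0.1 CPM, a split that the labels do not mention. In each depot 7 of 16 libraries were in set B. In EFAT it was uneven between groups: 3 of 4 Cth-/- CysF libraries, 1 of 4 Cth-/- CTRL libraries, 0 of 4 Cth+/+ CysF libraries and 3 of 4 Cth+/+ CTRL libraries were in set B. The 6 adipocyte markers summed to 4525 to 8328 CPM in BAT, 9106 to 18179 CPM in SFAT and 12186 to 17264 CPM in EFAT. The 7 brown adipocyte markers were higher in BAT (1933 to 8580 CPM) than in SFAT (45.6 to 1825 CPM) and EFAT (14.1 to 299 CPM). These sums are CPM of the whole library without further scaling, so the share of mitochondrial transcripts enters them. Where the set as a term moved a count of calls by over 1.5 times, both counts are given beside the result. In bulk tissue, fewer cells of a type and less RNA per cell cannot be told apart.

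Per kilobase of exon, the 77 genes spanned about the same range in all depots of Cth+/+ mice on CTRL. Levels in CPM of the whole library per kilobase ran from 2.35 to 68.7 in BAT (median 12.4), from 2.57 to 52.8 in SFAT (median 11.1) and from 2.43 to 48.2 in EFAT (median 10.6). Mrpl34, a homolog of the bacterial large-subunit protein L34, was highest in BAT with 68.7, followed by Mrps21 with 63.9. In SFAT Mrps21, a homolog of bacterial S21, led with 52.8, followed by Mrps6, a homolog of bacterial S6, with 35.1. In EFAT the same genes led, Mrps21 with 48.2 and Mrps6 with 44.7, whereas Mrps6 stood at 16.3 in BAT. Mrpl23, which lines the exit of the tunnel, was lowest per kilobase in each depot, with 2.35 in BAT, 2.57 in SFAT and 2.43 in EFAT. Exon length here joins all annotated exons of a gene and can exceed the expressed transcript, so these ranks depend on it. In CPM with TMM scaling within BAT, Mrpl23 was not lowest in Cth+/+ mice on CTRL. It had 9.37 to 13.0 CPM there, against 6.26 to 8.60 CPM for Mrpl52.

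Brown fat stood above both white depots in nearly all members when libraries were scaled by TMM, which sets the bulk of genes equal between libraries. In Cth+/+ mice on CTRL, 76 of 77 genes were higher in BAT than in SFAT and none was lower at an adjusted p under 0.05 in edgeR's quasi-likelihood test. Over all 18348 genes tested, 25.9% were higher and 27.1% lower. Against EFAT 75 genes were higher and none lower, with 26.9% of all genes higher and 33.1% lower. The median log2 fold change of the members was 1.22 against SFAT and 1.28 against EFAT, while the median of all genes was -0.04 and -0.09. SFAT against EFAT gave no call among the members, whose median was 0.04, where 15.2% of all genes were called in either direction. Of the members, 1 had an unadjusted p under 0.05 there, and DESeq2 called 0.

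The size of this difference depends on the scaling, and mitochondrial transcripts took a larger share of the counts in BAT than in the white depots. Scaled by library totals alone, the median of all genes moved to -1.05 for BAT against SFAT and to -1.13 for BAT against EFAT, and the members' medians to 0.21 and 0.25. Relative to all genes the members' median was 1.26 against SFAT and 1.38 against EFAT under both scalings. A change of scaling shifts all genes by about the same amount, so this sameness does not test the difference. With library totals 25 genes were higher and 4 lower in BAT than in SFAT, and 29 were higher and 5 lower than in EFAT. Shares of all genes called with library totals are not given here, and the shares under TMM above do not apply to these counts. Mrps6, Mrpl49 and Mrpl52 were lower in BAT than in both white depots on that scale, with Mrps6 at -1.11 against SFAT and -1.46 against EFAT.

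Mrps36 had the largest excess in BAT. Scaled over all 48 libraries, it had 125.3, 140.1, 119.5 and 109.7 CPM in BAT, against 13.1, 15.0, 14.3 and 15.9 CPM in SFAT and 14.7, 16.6, 11.5 and 11.4 CPM in EFAT. The depots did not overlap, and the log2 fold change was 3.08 ± 0.17 (SE) against SFAT (adjusted p = 2.0e-18, edgeR) and 3.19 ± 0.17 against EFAT (adjusted p = 3.8e-19). Although it carries a ribosomal name, Mrps36 is known as a component of the 2-oxoglutarate dehydrogenase complex of the citric acid cycle. Its pseudogene rows Mrps36-ps1 and Mrps36-ps2 had median counts of 58.0 and 56.3 in BAT and of 11.8 and 10.3 in SFAT, so a part of its reads may be split among copies. Mrpl34 followed, with 56.0 to 81.9 CPM in BAT, against 11.7 to 13.4 CPM in SFAT and 10.3 to 13.1 CPM in EFAT, or 2.42 ± 0.16 and 2.57 ± 0.16 on the log2 scale. Mrps27, a small-subunit protein with RNA-binding PPR repeats whose promoter is shown above, had 58.0 to 63.1 CPM in BAT, against 14.3 to 15.2 CPM in SFAT and 11.5 to 14.9 CPM in EFAT. Its log2 fold change was 2.06 ± 0.10 against SFAT and 2.21 ± 0.10 against EFAT, and 24.2% of its exon bases lie opposite 6430562O15Rik. Among mitochondria-specific proteins of the large subunit, Mrpl42 reached 2.08 ± 0.20 against SFAT and Mrpl50 2.12 ± 0.16 against EFAT.

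Mrps6 and Mrpl49 were the exceptions. Mrps6 had 44.0, 41.4, 37.5 and 39.1 CPM in BAT, against 45.8, 51.2, 35.3 and 40.7 CPM in SFAT and 58.5, 68.9, 44.9 and 46.5 CPM in EFAT. Its depots overlapped, with log2 differences of -0.09 ± 0.25 against SFAT and -0.43 ± 0.25 against EFAT, neither called. Mrpl49 was 0.31 ± 0.11 higher in BAT than in SFAT (adjusted p = 0.020, edgeR), and 0.13 ± 0.11 against EFAT was not called. Both subunits were higher in BAT. By their place in the ribosome, 50 of 50 large-subunit and 25 of 26 small-subunit genes were higher in BAT than in SFAT, with median log2 fold changes of 1.22 and 1.19. Mitochondria-specific and bacterial-type proteins had medians of 1.21 over 30 genes and 1.22 over 46 genes.

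**Figure D1:**
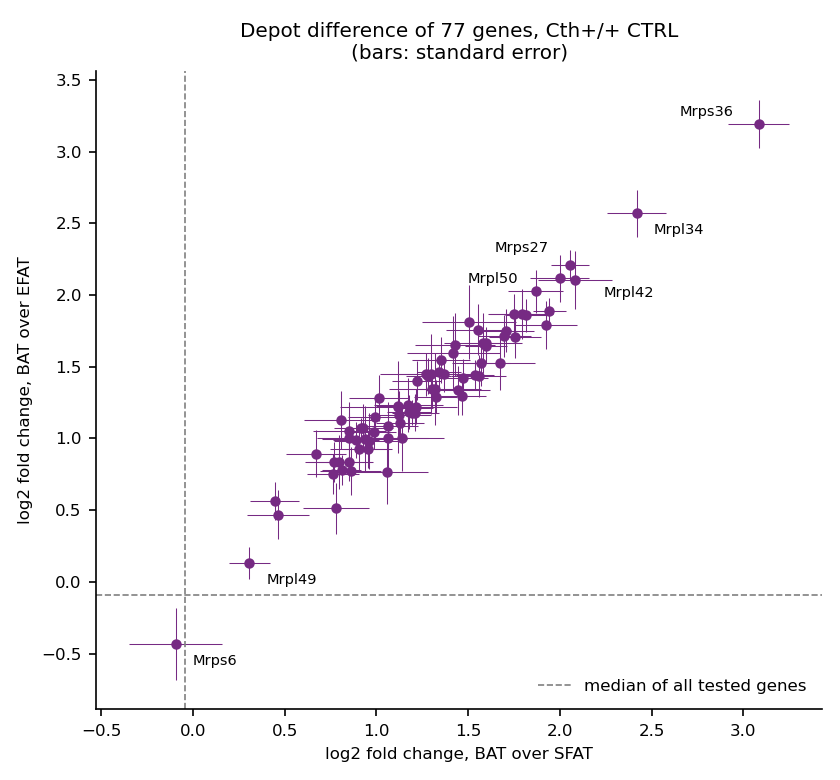
Log2 fold change of each of the 77 genes in Cth+/+ mice on CTRL, BAT over SFAT on the horizontal axis and BAT over EFAT on the vertical axis, with bars for the standard error and dashed lines for the median of all genes tested. Points lie along the diagonal between about the position of Mrps6, at -0.09 and -0.43, and that of Mrps36, at 3.08 and 3.19.

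Over the 4 groups of a depot, the summed level of the 77 genes, in CPM with TMM scaling within the depot, moved in different ways. In BAT it averaged 2454 ± 101 in Cth-/- CysF, 2212 ± 135 in Cth-/- CTRL, 2433 ± 156 in Cth+/+ CysF and 2462 ± 63 in Cth+/+ CTRL libraries (SD, n = 4 each). In SFAT it averaged 2147 ± 201 in Cth-/- CysF, 1707 ± 142 in Cth-/- CTRL, 1771 ± 327 in Cth+/+ CysF and 2022 ± 126 in Cth+/+ CTRL libraries. In EFAT it averaged 1735 ± 46 in Cth-/- CysF, 1986 ± 380 in Cth-/- CTRL, 2262 ± 423 in Cth+/+ CysF and 2188 ± 200 in Cth+/+ CTRL libraries. Cth-/- CysF libraries were thus the highest group in SFAT and the lowest in EFAT, and in BAT they stood at the level of both Cth+/+ groups. In SFAT each of the 4 Cth-/- CysF libraries (1861 to 2302) was above each of the Cth-/- CTRL libraries (1563 to 1832). In EFAT the Cth-/- CTRL libraries were split, with 2245 and 2374 in replicates 12 and 14 and 1716 and 1607 in replicates 13 and 15, and the Cth-/- CysF libraries (1680 to 1789) lay within that range.

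**Figure D2:**
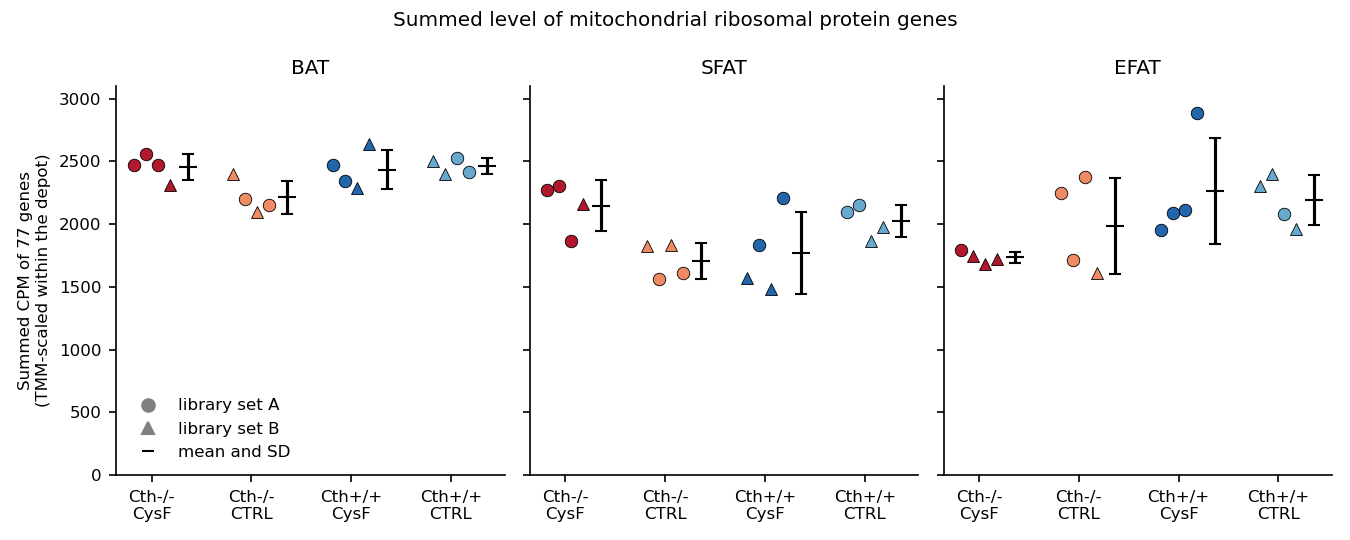
Summed CPM of the 77 genes in each library (points; circles for library set A and triangles for set B), with the mean and SD of each group of 4, by depot, with Cth-/- CysF at the left and Cth+/+ CTRL at the right. The Cth-/- CysF libraries are highest as a group in SFAT (mean 2147) and lowest in EFAT (mean 1735).

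With the diet in Cth-/- mice, part of these genes rose in BAT and SFAT, while in EFAT more fell than rose. In Cth-/- mice on CysF against Cth-/- mice on CTRL, 8 members rose and 1 fell in BAT, while 25 rose and 0 fell in SFAT. In EFAT 5 rose and 14 fell (adjusted p under 0.05, edgeR). Of all genes tested 7.81% rose and 10.2% fell in BAT, 11.8% rose and 13.6% fell in SFAT, and 14.5% rose and 14.3% fell in EFAT. For BAT the share of members that rose, 8 of 77, is near that of all genes. In EFAT 18.2% of members fell, near the 14.3% of all genes, and 6.5% rose, under the 14.5% of all genes. The members' median log2 fold change was 0.20 in BAT, 0.33 in SFAT and -0.26 in EFAT, beside medians of all genes of -0.01, 0.03 and 0.07. Of the 77 members 60 had values above 0 in BAT, 74 had them in SFAT and 17 had them in EFAT, and 48 were above 0 in BAT and SFAT but below 0 in EFAT. The levels of the groups did not overlap for 14 members that were higher and 1 that was lower in BAT, 24 higher and 0 lower in SFAT, and 4 higher and 4 lower in EFAT. Over all genes tested, 10.4% were higher without overlap and 12% lower in BAT, 13.5% higher and 14.5% lower in SFAT, and 14.4% higher and 12.5% lower in EFAT.

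These counts moved with the scaling, the library set and single libraries. In BAT no call was left with library totals, although the members' median was then 0.28, or within set B, 15 members were called within set A (15 higher), and 3 or 4 were called when replicate 14, 16, 17 or 18 was left out. In SFAT 3 were called with library totals, where the median of all genes moved to -0.17 and the members' to 0.12, 41 within set A, 13 within set B (10 rose, 3 fell), and 10 to 14 without replicate 13, 15, 16 or 17. In EFAT 30 were called without replicate 15 (2 rose, 28 fell), and 7 to 10 without replicate 12, 14, 17, 18 or 20. Once the library set was a term in the model, 3 rose and 4 fell in EFAT, and within set A or set B alone none was called.

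**Figure D3:**
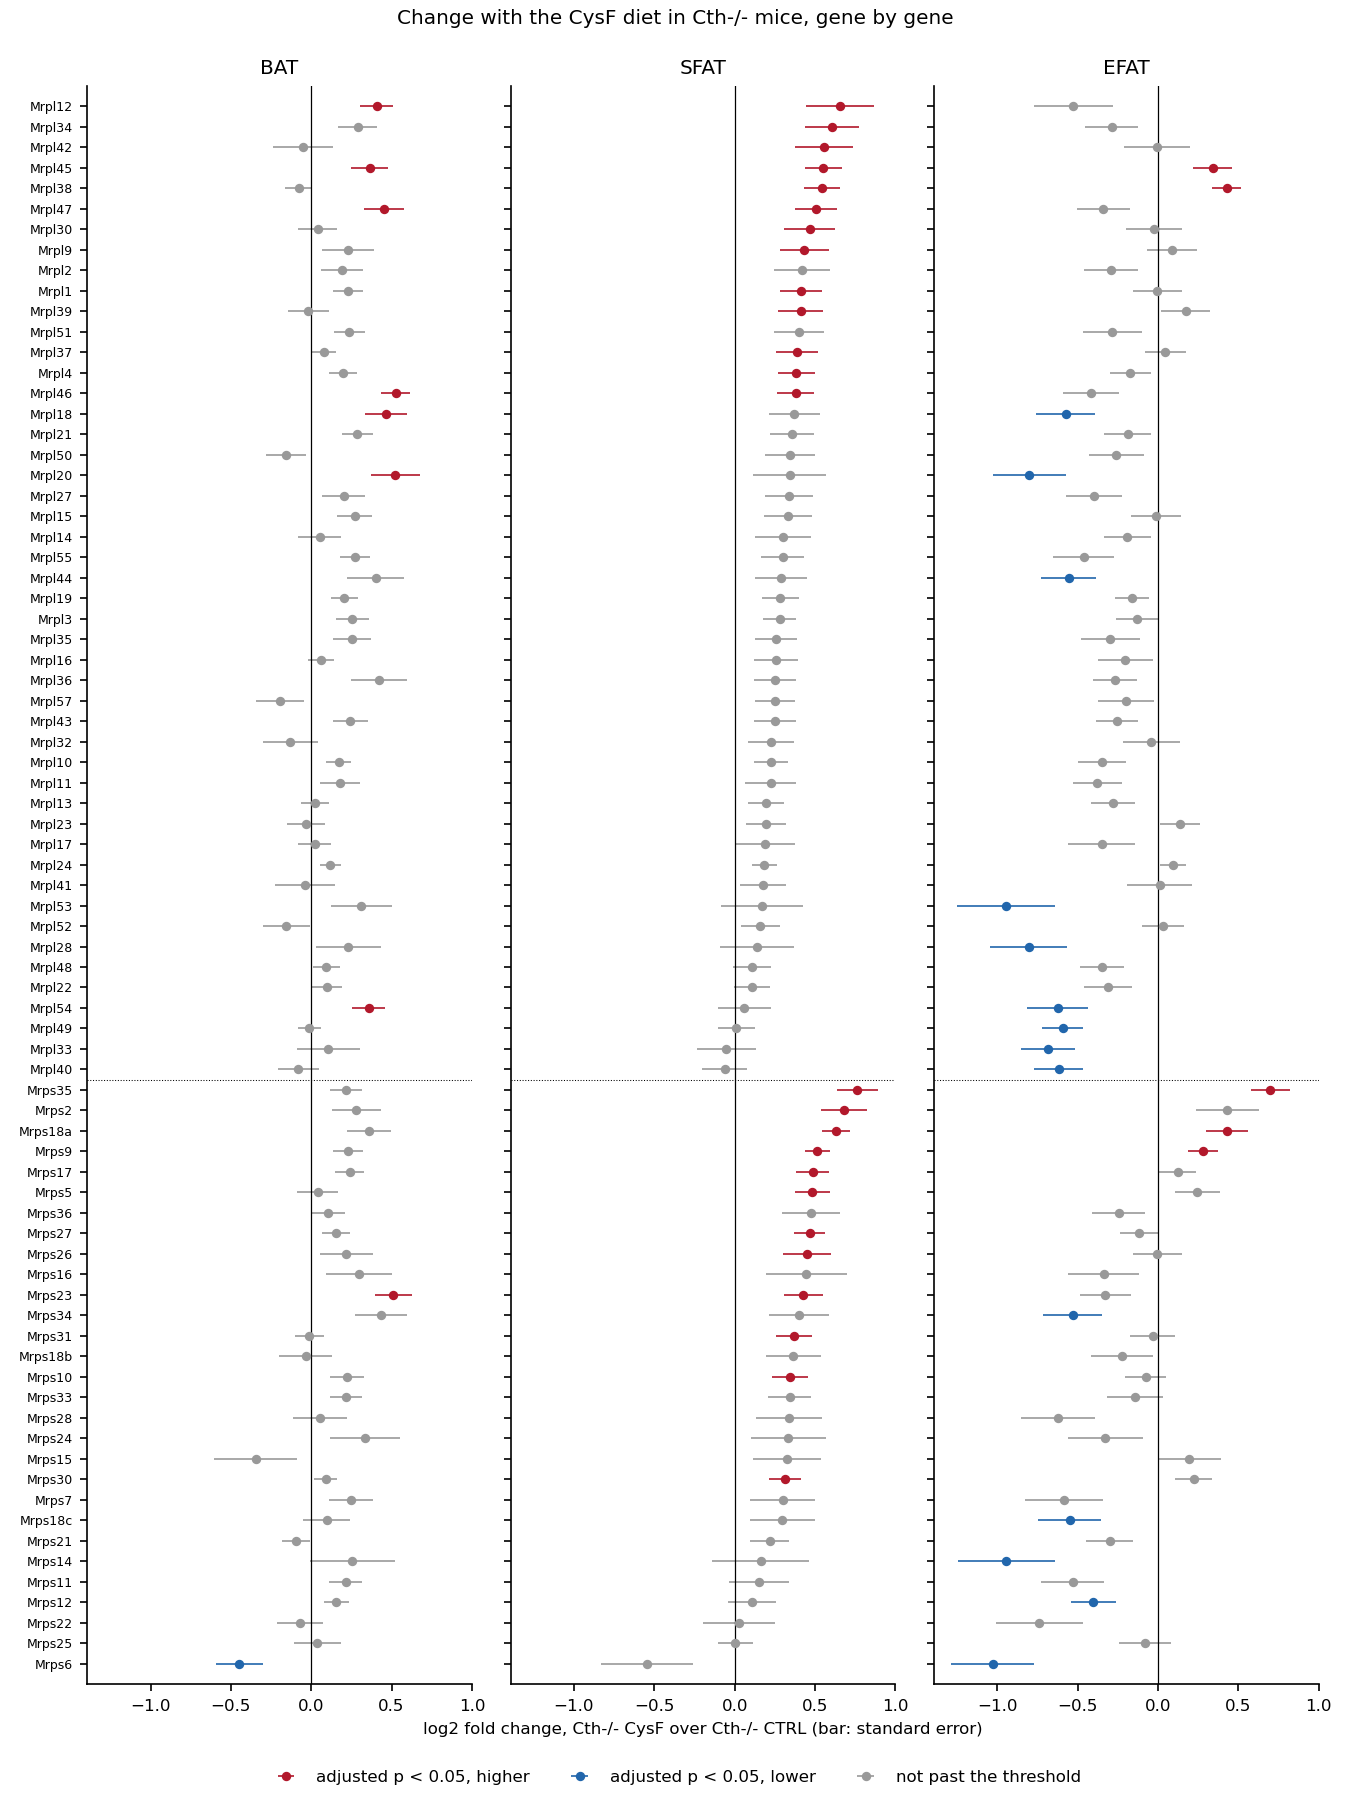
Log2 fold change of each of the 77 genes, Cth-/- CysF over Cth-/- CTRL, in BAT, SFAT and EFAT, with bars for the standard error and colours for genes past an adjusted p of 0.05. Most points lie right of 0 in BAT (60 of 77) and SFAT (74) and left of 0 in EFAT (60).

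Among large-subunit genes, Mrpl45 was the member that rose in all 3 depots. Mrpl45 sits at the tunnel exit and anchors the ribosome to the inner membrane. It had 28.3, 28.6, 28.1 and 26.3 CPM in BAT of Cth-/- mice on CysF, against 18.6, 24.9, 17.4 and 25.4 CPM on CTRL, and the groups did not overlap. In SFAT it had 29.1, 32.6, 28.9 and 27.3 CPM on CysF, against 20.3, 21.0, 18.5 and 20.6 CPM on CTRL. In EFAT it had 33.0, 25.7, 35.5 and 29.5 CPM on CysF, against 27.2, 25.2, 25.3 and 20.0 CPM on CTRL, where the groups overlapped. Log2 fold changes were 0.36 ± 0.11 in BAT (adjusted p = 0.037), 0.55 ± 0.12 in SFAT (adjusted p = 0.0033) and 0.34 ± 0.12 in EFAT (adjusted p = 0.049). The call was lost in 14 of 16 alternatives in EFAT, in 10 of 17 in BAT and in 2 of 17 in SFAT, with no change of sign. Mrpl12, Mrpl46, Mrpl47 and Mrps23 rose in both BAT and SFAT and were not called in EFAT.

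Mrpl46, a mitochondria-specific protein of the central protuberance, had the largest rise in BAT. Its level was 18.1, 18.1, 18.1 and 17.3 CPM in Cth-/- mice on CysF, against 12.8, 12.6, 12.2 and 12.1 CPM on CTRL, or 17.9 ± 0.4 and 12.4 ± 0.3 CPM (SD, n = 4 each). The log2 fold change was 0.53 ± 0.09 (adjusted p = 0.0013), and the gene shares 173 exon bases with Mrps11 on the opposite strand. Mrps23, a mitochondria-specific protein of the small subunit, had 56.7, 55.4, 53.6 and 44.5 CPM on CysF, against 36.0, 40.3, 31.9 and 39.3 CPM on CTRL, a change of 0.51 ± 0.11 (adjusted p = 0.0068). Mrpl12, the homolog of the bacterial stalk protein that recruits translation factors, changed by 0.41 ± 0.10 in BAT (adjusted p = 0.013) and by 0.66 ± 0.21 in SFAT (adjusted p = 0.031). In SFAT its levels were 58.9, 65.3, 39.0 and 58.9 CPM on CysF, against 38.9, 31.4, 38.2 and 32.3 CPM on CTRL, with 1 CysF library just above the highest CTRL libraries.

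The large-subunit genes that rose in BAT and fell in EFAT were Mrpl18, Mrpl20 and Mrpl54. Mrpl20, a homolog of the bacterial assembly protein L20, had 45.1, 47.2, 40.3 and 34.0 CPM in BAT on CysF, against 30.8, 31.9, 25.5 and 27.9 CPM on CTRL. In EFAT it had 31.3, 23.7, 22.7 and 22.0 CPM on CysF, against 53.8, 31.7, 58.9 and 29.4 CPM on CTRL. The groups did not overlap in BAT and overlapped in EFAT, and the log2 fold changes were 0.52 ± 0.15 in BAT (adjusted p = 0.027) and -0.80 ± 0.23 in EFAT (adjusted p = 0.018). Mrpl18, a homolog of the bacterial protein that binds 5S ribosomal RNA, changed by 0.47 ± 0.13 in BAT (adjusted p = 0.022) and by -0.57 ± 0.19 in EFAT (adjusted p = 0.031). Mrpl54, a mitochondria-specific protein, changed by 0.36 ± 0.10 in BAT (adjusted p = 0.023) and by -0.62 ± 0.19 in EFAT (adjusted p = 0.025). In SFAT these genes stood at 0.37 ± 0.16 for Mrpl18, 0.34 ± 0.23 for Mrpl20 and 0.06 ± 0.16 for Mrpl54, none called. Each of these rises in BAT lost its call in 8 of 17 alternatives, and the falls in EFAT in 6 to 8 of 16, with no change of sign. With the library set as a term none of the falls in EFAT passed, with Mrpl20 at -0.60 ± 0.24 (adjusted p = 0.092). No member rose in SFAT and fell in EFAT. Shares of all genes for such calls over several depots are not given here.

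In the white depots the largest rise was that of Mrps35, a mitochondria-specific protein of the small subunit (ENSMUSG00000040112.9, GRCm38 chr6:147042764-147073991, plus strand, 8631 exon bases). In SFAT it had 29.0, 34.8, 31.6 and 46.5 CPM in Cth-/- mice on CysF, against 20.5, 20.1, 22.0 and 20.9 CPM on CTRL. In EFAT it had 28.6, 35.6, 33.8 and 40.8 CPM on CysF, against 19.9, 19.7, 22.3 and 23.7 CPM on CTRL. Every CysF library was above every CTRL library in both depots, and the highest SFAT library was replicate 20, in which mitochondrial transcripts gave 31.28% of the counts. The log2 fold change was 0.76 ± 0.13 in SFAT (adjusted p = 7.2e-04) and 0.70 ± 0.12 in EFAT (adjusted p = 0.0011). In BAT Mrps35 had 42.3 ± 4.5 CPM on CysF and 36.5 ± 3.4 CPM on CTRL (SD, n = 4 each), and was not called. With the library set as a term the EFAT change was 0.57 ± 0.11 and still passed, and Mrps35 shares no exon base with another gene.

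Mrps18a, Mrpl38 and Mrps9 also rose in both white depots. Mrps18a is a homolog of bacterial S18 that, unlike its relatives Mrps18b and Mrps18c, sits in the large subunit. It had 36.2, 38.6, 35.9 and 33.5 CPM in SFAT of Cth-/- mice on CysF, against 23.4, 21.8, 24.5 and 23.4 CPM on CTRL, a change of 0.63 ± 0.09 (adjusted p = 1.3e-04). In EFAT it had 31.5, 31.3, 35.6 and 31.8 CPM on CysF, against 27.6, 22.8, 26.8 and 19.7 CPM on CTRL, a change of 0.43 ± 0.13 (adjusted p = 0.026), and in neither depot did the groups overlap. Of its relatives, Mrps18c fell in EFAT by 0.55 on the log2 scale (SE 0.20, adjusted p = 0.048), and Mrps18b was called in no depot. Mrpl38, a mitochondria-specific protein of the central protuberance, changed by 0.54 ± 0.11 in SFAT (adjusted p = 0.0026) and by 0.43 ± 0.09 in EFAT (adjusted p = 0.0040). Mrps9, a homolog of bacterial S9, changed by 0.51 ± 0.08 in SFAT and by 0.28 ± 0.09 in EFAT. In EFAT the calls of Mrps18a, Mrps18c and Mrpl38 were lost in 10, 11 and 3 of 16 alternatives. With the library set as a term Mrpl38 still passed in EFAT, and Mrps18a, Mrps18c and Mrps9 did not.

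A further 16 genes were called in SFAT and in no other depot, a count of calls rather than of tested differences. The share of all genes called in SFAT alone is not given here. Mrps2, a homolog of bacterial S2, had 42.6, 41.8, 32.2 and 57.3 CPM on CysF, against 28.6, 26.7, 27.9 and 25.2 CPM on CTRL, a change of 0.68 ± 0.14 (adjusted p = 0.0033). Mrpl34 changed by 0.61 ± 0.17 and Mrps27 by 0.47 ± 0.10, so that both genes, high in BAT at baseline, were among them. Mrps36 was at 0.47 ± 0.18 and was not called (adjusted p = 0.064). By place in the ribosome, 15 of 50 large-subunit and 10 of 26 small-subunit genes rose in SFAT, and 13 of 30 mitochondria-specific and 12 of 46 bacterial-type genes. Of all genes tested, 11.8% rose in SFAT. In EFAT 3 large-subunit genes rose and 9 fell, and 2 small-subunit genes rose and 5 fell. Of all genes tested in EFAT, 14.5% rose and 14.3% fell.

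Mrps6 had the largest fall in EFAT and was the member that fell in both EFAT and BAT. In EFAT it had 39.2, 29.1, 32.3 and 28.0 CPM in Cth-/- mice on CysF, against 86.1, 54.2, 79.7 and 42.7 CPM on CTRL, a change of -1.03 ± 0.26 (adjusted p = 0.0094). In BAT it had 16.9, 14.5, 13.2 and 11.7 CPM on CysF, against 21.1, 18.6, 19.4 and 17.8 CPM on CTRL, a change of -0.45 ± 0.14 (adjusted p = 0.042). The groups did not overlap in either depot. In SFAT the change was -0.55 ± 0.28 and was not called. The call of Mrps6 was lost in 11 of 17 alternatives in BAT and in 2 of 16 in EFAT, with no change of sign. Of its exon bases 19.9% are shared with Slc5a3 and Gm49711 on the same strand, so its counts could hold reads of these genes. Mrps14, a homolog of bacterial S14, had 20.4, 9.79, 13.7 and 8.70 CPM in EFAT on CysF, against 31.4, 21.7, 33.4 and 14.9 CPM on CTRL, and the groups overlapped. It changed by -0.95 ± 0.30 (adjusted p = 0.030), as did the mitochondria-specific Mrpl53 (-0.95 ± 0.31, adjusted p = 0.032), which shares 88.0% of its exon bases with Gm42688. Mrpl28, a homolog of bacterial L28, changed by -0.81 ± 0.24 (adjusted p = 0.022), Mrpl44 by -0.56 ± 0.17 and Mrps12, a protein of the decoding centre, by -0.40 ± 0.14. In EFAT the calls of Mrpl28 and Mrpl44 were lost in 8 of 16 alternatives each. Those of Mrps14 and Mrpl53 were lost in 9 of 16 each, and that of Mrps12 in 11 of 16. With the library set as a term Mrps14, Mrpl53, Mrpl28, Mrpl44 and Mrps12 did not pass in EFAT.

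**Figure D4:**
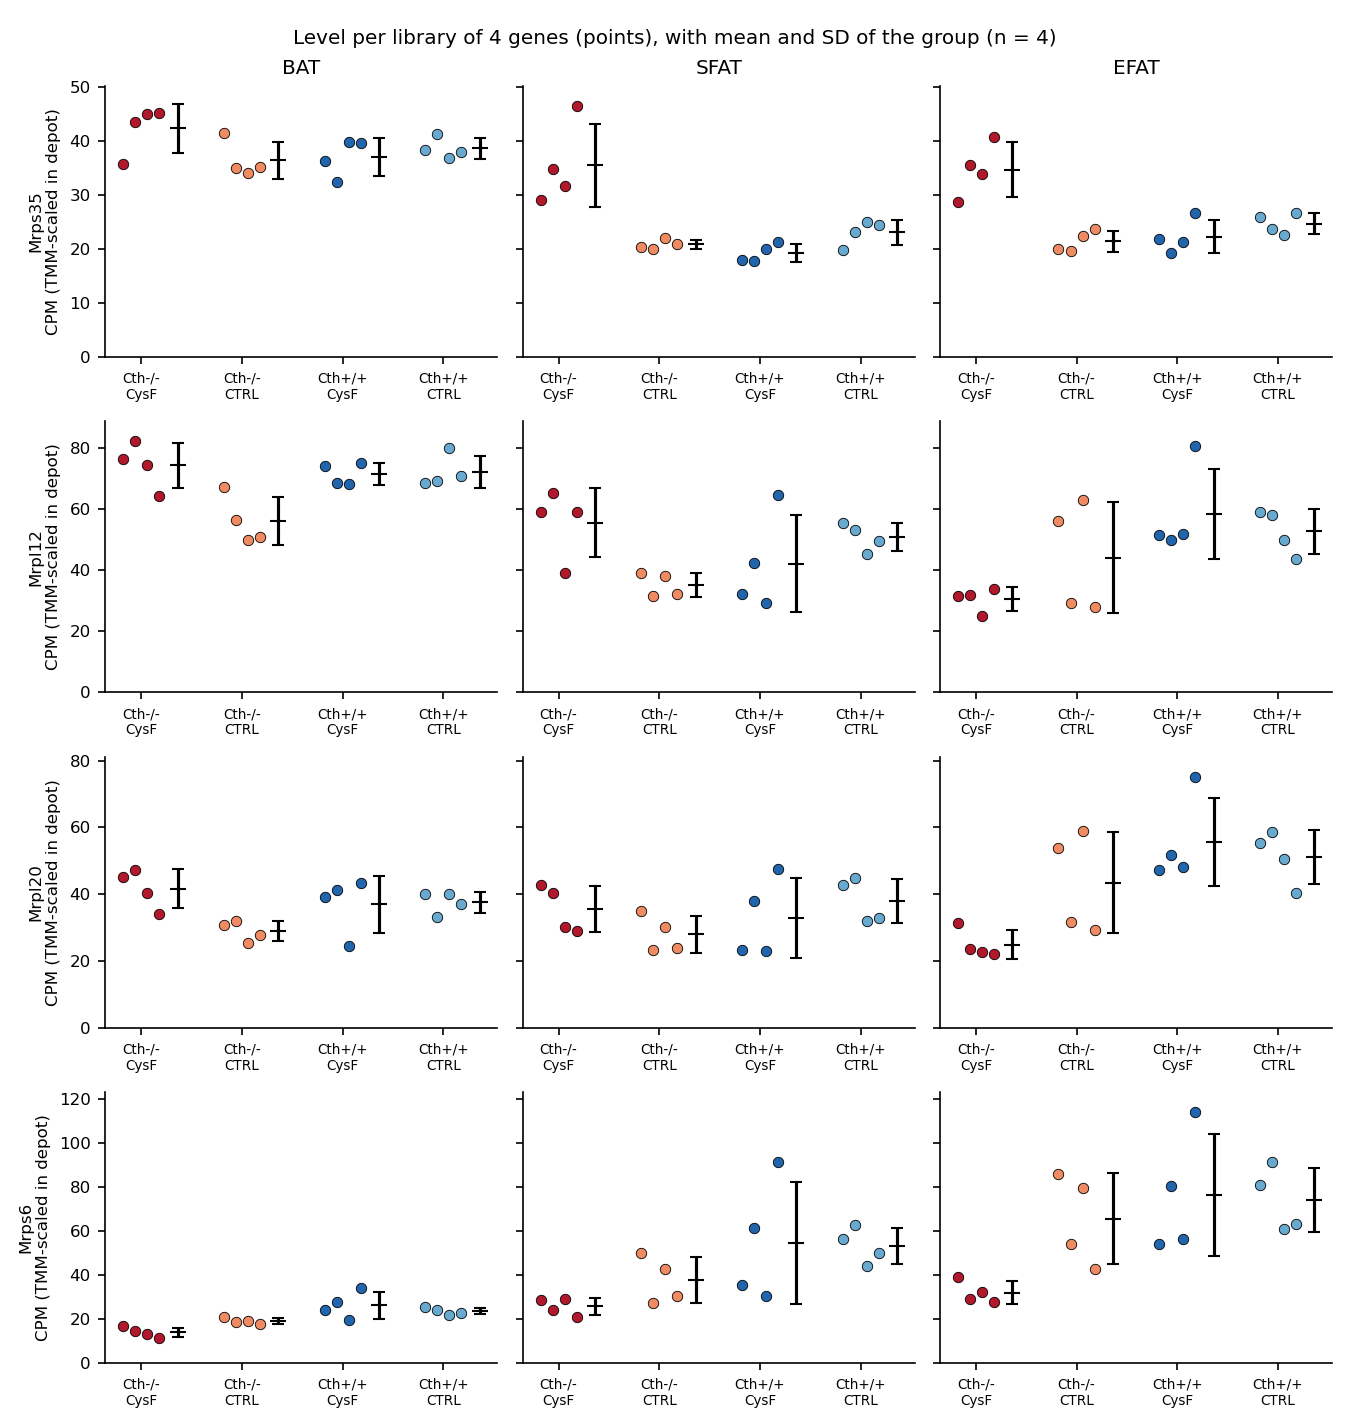
Level in CPM, scaled by TMM within the depot, of 4 members in each library, with the mean and SD of each group of 4, by depot and with Cth-/- CysF at the left. Mrps35 is high in Cth-/- CysF in both white depots (35.5 ± 7.7 CPM in SFAT and 34.7 ± 5.0 CPM in EFAT), and Mrps6 is low there in EFAT (32.2 ± 5.0 CPM).

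About as many members were called in no depot as were called in at least 1. The share of all genes called in no depot is not given here, so this count is not set apart from that of other genes. Mrpl10 and Mrpl11 of the stalk base, Mrpl23 and Mrpl24 of the tunnel exit, Mrpl32 and Mrpl36 passed in none, nor did 38 of the 77 members in all. Mrpl10 was at 0.17 ± 0.08 in BAT, 0.23 ± 0.11 in SFAT and -0.35 ± 0.15 in EFAT. Mrpl24 was at 0.12 ± 0.07 in BAT, 0.19 ± 0.08 in SFAT and 0.09 ± 0.08 in EFAT, also not called.

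Changes in EFAT went with the joined length of all annotated exons and with the library set, and their part in the result was not tested. Of 39 members at or under the median exon length of 2255 bases, 0 rose and 12 fell, with a median log2 fold change of -0.35. Of the 38 longer members 5 rose and 2 fell, with a median of -0.04. Spearman's rho between exon length and log2 fold change over the 77 members was 0.44 in EFAT, -0.12 in BAT and 0.14 in SFAT, beside 0.11 over 14943 protein-coding genes in EFAT. These correlations are across genes that share libraries. In SFAT 20 of the longer and 5 of the shorter members rose.

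The 14 members that fell in EFAT were also lower in set B than in set A libraries of other depots. Within groups, set B minus set A on the log2 CPM scale had a median of -0.26 in BAT and -0.32 in SFAT over these 14 genes, 13 of them below 0 in each, and of -0.40 in EFAT. Over all 77 members the medians were -0.05 in BAT, -0.09 in SFAT and -0.15 in EFAT. Mrps14 was lower in set B by -0.66 in BAT, -0.70 in SFAT and -0.77 in EFAT on that scale, while Mrps35 was at 0.13, 0.19 and 0.24. Across the 77 members, Spearman's rho between the set difference in BAT and the diet change in EFAT, which share no library, was 0.42, and with the set difference in SFAT it was 0.54. With the diet change in BAT, rho was -0.41 for the set difference in SFAT and -0.44 for that in EFAT, and with the diet change in SFAT it was -0.01 for the set difference in BAT and 0.23 for that in EFAT. With the library set as a term in EFAT, Mrps35 (0.57 ± 0.11), Mrpl45 (0.43 ± 0.13) and Mrpl38 (0.41 ± 0.10) rose. Mrps6 (-0.88 ± 0.29, adjusted p = 0.04997), Mrpl40 (-0.65 ± 0.17), Mrpl49 (-0.49 ± 0.13) and Mrpl33 (-0.46 ± 0.13) fell.

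**Figure D5:**
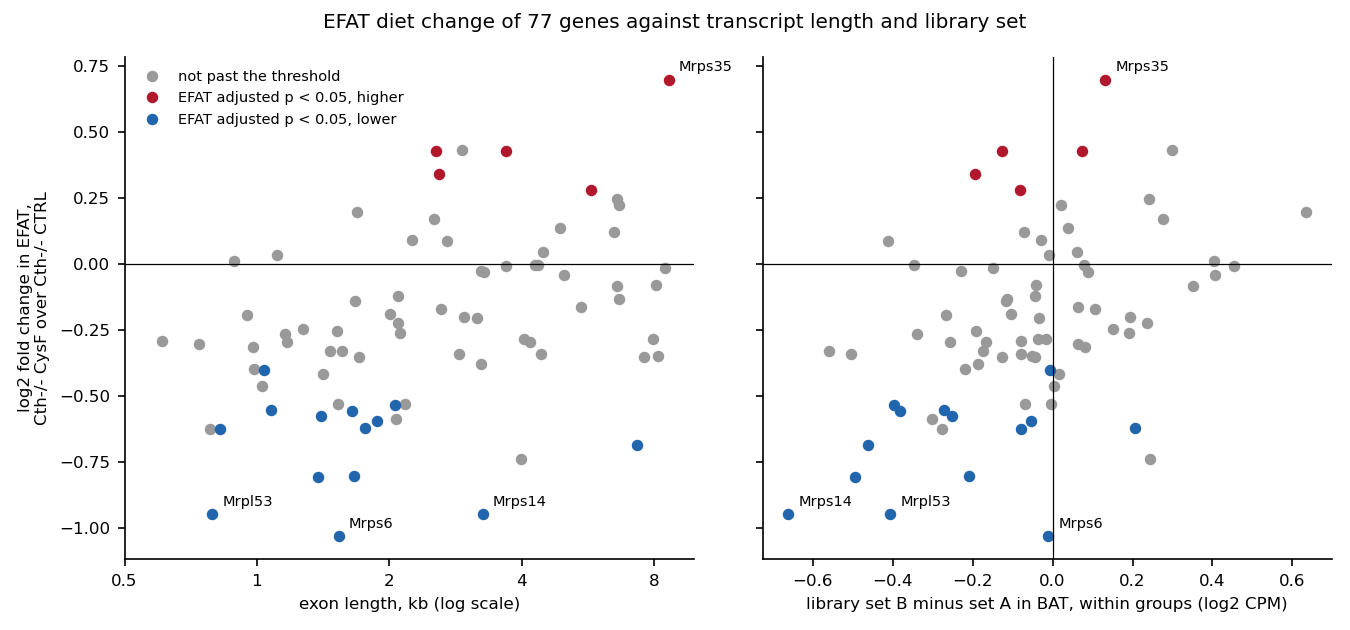
Log2 fold change of each of the 77 genes in EFAT, Cth-/- CysF over Cth-/- CTRL, against exon length in kilobases on a log axis (left) and against the difference of set B minus set A libraries within groups in BAT (right). Points that fell lie mostly at short lengths (12 of 14 at or under 2255 bases) and left of 0 at the right (13 of 14).

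Other cell types' markers also shifted with CysF in Cth-/- mice, and their part in the results was not tested. All marker sums are CPM of the whole library. In BAT 12 skeletal muscle genes summed to 5.04 to 160 CPM on CysF, against 89.0 to 1006 CPM on CTRL. The macrophage markers there summed to 39.2 to 64.0 CPM on CysF, against 49.0 to 123 CPM on CTRL, and 9 of 10 tested fell. The B cell markers there summed to 2.59 to 7.26 CPM on CysF, against 9.21 to 13.1 CPM on CTRL, and 2 of 3 tested fell. The 4 erythrocyte markers summed to 137 to 247 CPM on CysF, against 177 to 435 CPM on CTRL, and 4 of 4 fell. With the muscle level as a covariate 2 members passed in BAT, Mrpl46 at 0.62 ± 0.12 (adjusted p = 0.0090) and Mrps23 at 0.61 ± 0.16 (adjusted p = 0.031). In SFAT the 7 brown adipocyte markers summed to 382 to 1825 CPM on CysF, against 148 to 400 CPM on CTRL, and 7 of 7 rose. There 8 B cell markers summed to 43.3 to 106 CPM on CysF, against 174 to 645 CPM on CTRL, and 8 of 8 fell. In EFAT the B cell markers summed to 46.6 to 54.1 CPM on CysF, against 232 to 965 CPM on CTRL, and the 11 macrophage markers to 598 to 977 CPM on CysF, against 1093 to 1379 CPM on CTRL. In EFAT 6 epithelial markers summed to 110 to 688 CPM on CysF, against 8.34 to 201 CPM on CTRL, and the 7 brown adipocyte markers to 28.8 to 41.3 CPM on CysF, against 14.1 to 23.6 CPM on CTRL. Fibroblast markers summed to 129 to 183 CPM in BAT and 1267 to 1918 CPM in SFAT on CysF, against 270 to 578 CPM in BAT and 4931 to 14343 CPM in SFAT on CTRL. Of these lists' genes Itgam was at 0 throughout the BAT libraries of Cth-/- mice on CysF, and no other was at 0 throughout either group in the depots given for it.

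On CysF some members were called between genotypes in each depot, with more calls than for the diet in EFAT (45 against 19) and fewer in BAT (5 against 9). In Cth-/- against Cth+/+ mice, both on CysF, 4 members were higher and 1 lower in BAT, 26 higher and 1 lower in SFAT, and 3 higher and 42 lower in EFAT. Of all genes 14.5% were higher and 17.1% lower in BAT, 18.1% higher and 19.4% lower in SFAT, and 20.1% higher and 19.6% lower in EFAT. The members' shares in BAT, 5.2% higher and 1.3% lower, are thus under those of all genes. The median log2 fold change of members was 0.02 in BAT, 0.27 in SFAT and -0.46 in EFAT. For EFAT the groups did not overlap for 42 members that were lower and 2 that were higher, beside 17% of all genes tested lower and 17.9% higher. There all Cth+/+ CysF libraries were in set A and 3 of 4 Cth-/- CysF libraries in set B. With the set as a term 2 members were higher and 9 lower, within set A none was called, and without replicate 11, the library with the highest summed level (2888 CPM), 4 were higher and 25 lower. In BAT 2 or 3 members were called without replicate 8, 17 or 18, 1 with library totals, 0 with the muscle level as a covariate, and 8 with the set as a term (5 higher, 3 lower). Within set A 9 members were called there, and within set B none. In SFAT, leaving out replicate 11 gave 42 higher and 1 lower, and library totals gave 7 higher and 2 lower.

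Mrps6 was lower in Cth-/- mice on CysF in all 3 depots, by -0.91 ± 0.14 in BAT (adjusted p = 2.7e-04), -1.08 ± 0.29 in SFAT (adjusted p = 0.0078) and -1.25 ± 0.26 in EFAT (adjusted p = 0.0020). In BAT it averaged 14.1 ± 2.2 CPM in Cth-/- CysF and 26.5 ± 6.1 CPM in Cth+/+ CysF libraries (SD, n = 4 each), without overlap. Mrps9 was the gene that was higher in all 3 depots, by 0.31 ± 0.10 in BAT, 0.73 ± 0.08 in SFAT (adjusted p = 8.1e-06) and 0.31 ± 0.09 in EFAT. In SFAT it had 30.5, 33.8, 33.2 and 31.5 CPM in Cth-/- CysF, against 19.4, 20.0, 18.5 and 19.9 CPM in Cth+/+ CysF libraries. Mrps35 was higher by 0.88 ± 0.13 in SFAT and by 0.64 ± 0.12 in EFAT, and Mrpl38 by 0.65 ± 0.11 in SFAT and 0.43 ± 0.09 in EFAT. In BAT Mrpl18 (0.39 ± 0.13), Mrpl46 (0.32 ± 0.09) and Mrps17 (0.27 ± 0.09) completed the higher genes. The largest deficits in EFAT were those of Mrpl53 (-1.34 ± 0.31), Mrps14 (-1.28 ± 0.30), Mrps6 and Mrps22 (-1.24 ± 0.27), a mitochondria-specific protein of the small subunit. Mrps22 had 12.1, 13.8, 11.2 and 13.1 CPM in Cth-/- CysF, against 21.5, 26.0, 23.4 and 47.9 CPM in Cth+/+ CysF libraries.

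Diet alone in Cth+/+ mice and genotype alone on CTRL gave no call among the members in any depot. For the diet in Cth+/+ mice, 0 members in BAT, 10 in SFAT (all lower) and 0 in EFAT had an unadjusted p under 0.05, and DESeq2 called 0 in each. That unadjusted threshold was passed by 14% of all genes in SFAT, 9.8% in BAT and 3.93% in EFAT. After adjustment 0.0826% of all genes were called in BAT, 0.0664% in SFAT and 0% in EFAT. Median log2 fold changes were -0.02 in BAT, -0.21 in SFAT and 0.07 in EFAT. For Cth-/- against Cth+/+ mice on CTRL, 18 members in BAT, 20 in SFAT and 1 in EFAT had an unadjusted p under 0.05, all of them lower in Cth-/- mice, beside 18.3% of all genes in either direction for BAT, 11% for SFAT and 6.2% for EFAT. DESeq2 called 7 in BAT, 1 in SFAT and 0 in EFAT. With the library set as a term 8 members were lower in BAT, and within set A 7 were called in BAT and 15 in SFAT. After adjustment 2.1% of all genes were called in BAT, 0.103% in SFAT and 0.0464% in EFAT. Members' medians there were -0.17 in BAT, -0.24 in SFAT and -0.12 in EFAT. Without replicate 11, 1 member fell with the diet in SFAT of Cth+/+ mice, and without replicate 12, 1 was lower in Cth-/- BAT on CTRL. In BAT and SFAT 16 members each had all Cth-/- CTRL libraries below all Cth+/+ CTRL libraries, beside 5.77% of all genes tested in BAT and 4.92% in SFAT.

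The diet response differed between genotypes for 1 member in BAT, 28 in SFAT and 4 in EFAT. All calls in BAT and SFAT were more positive in Cth-/- mice, while in EFAT 2 were more positive and 2 more negative. Of all genes 2.1% were more positive and 4.32% more negative in BAT, 9.39% more positive and 12.4% more negative in SFAT, and 5.04% more positive and 5.35% more negative in EFAT. Over members the median of the interaction was 0.20 in BAT, 0.52 in SFAT and -0.31 in EFAT. Without replicate 1, 3, 14, 15, 16, 17 or 18 BAT had 0 calls, and without replicate 10, 12 or 20 it had 2. SFAT had 14 to 18 without replicate 1, 2, 7, 10, 13, 15, 16 or 17, and 48 without replicate 11. EFAT had 18 without replicate 15, 20 without replicate 16, and 1 or 2 without replicate 4, 8, 12, 14, 17, 18 or 20. With the library set as a term EFAT had 0. In BAT the count was 2 with that term. Library totals gave 0 in BAT, 2 in SFAT and 8 in EFAT (2 more positive, 6 more negative). No filter on low counts gave 12 in SFAT, 2 in EFAT and 0 in BAT. DESeq2 gave 3 in BAT and 14 in EFAT (2 more positive, 12 more negative).

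Mrpl46 was the member called in BAT, at 0.50 ± 0.13 (adjusted p = 0.031). In SFAT the largest were Mrps35 (1.03 ± 0.18, adjusted p = 0.0015), Mrpl12 (0.92 ± 0.30, adjusted p = 0.036), Mrpl34 (0.87 ± 0.24, adjusted p = 0.017) and Mrps27 (0.78 ± 0.14, adjusted p = 0.0015). Mrps27 had 21.8, 20.0, 19.1 and 21.4 CPM in Cth-/- CysF and 15.8, 14.7, 14.7 and 14.3 CPM in Cth-/- CTRL libraries, and 13.9, 13.6, 12.6 and 17.5 CPM in Cth+/+ CysF and 18.8, 17.5, 17.8 and 17.8 CPM in Cth+/+ CTRL libraries. Mean levels were thus higher on CysF than on CTRL in Cth-/- mice and lower on CysF than on CTRL in Cth+/+ mice. In EFAT Mrps35 (0.84 ± 0.17, adjusted p = 0.010) and Mrpl38 (0.54 ± 0.13, adjusted p = 0.022) were more positive. Mrpl33 (-0.96 ± 0.24, adjusted p = 0.025) and Mrpl49 (-0.60 ± 0.18, adjusted p = 0.049) were more negative.

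Tested directly in a fit of all 48 libraries, the diet response of Cth-/- mice was lower in EFAT than in BAT for 28 members and higher for 1, beside 8.93% and 7.29% of all genes. It was higher in SFAT than in EFAT for 20 members and lower for none, beside 3.35% and 1.04% of all genes. SFAT and BAT differed for 1 member, which was higher in SFAT, beside 1.34% of all genes higher and 0.823% lower. The medians of these differences were -0.43 for EFAT minus BAT, 0.57 for SFAT minus EFAT and 0.15 for SFAT minus BAT. Mrpl20 differed most between EFAT and BAT, by -1.38 ± 0.32 (adjusted p = 0.0028), and by 1.20 ± 0.32 between SFAT and EFAT (adjusted p = 0.024). Mrpl18 differed by -1.10 ± 0.24 between EFAT and BAT (adjusted p = 0.0021) and by 1.00 ± 0.24 between SFAT and EFAT (adjusted p = 0.014). Mrpl53 (-1.31 ± 0.39, adjusted p = 0.020) and Mrpl28 (-1.09 ± 0.35, adjusted p = 0.029) followed for EFAT minus BAT. Mrpl12 (1.24 ± 0.29, adjusted p = 0.012) and Mrps28, a small-subunit protein (1.01 ± 0.30, adjusted p = 0.047), followed for SFAT minus EFAT. Mrpl38 responded more in both white depots than in BAT, by 0.61 ± 0.12 in SFAT (adjusted p = 0.0053) and 0.44 ± 0.12 in EFAT (adjusted p = 0.013). With library totals 4 members were called for EFAT minus BAT and 0 for SFAT minus EFAT and for SFAT minus BAT. Adding the library set as a term left 16 for EFAT minus BAT, 12 for SFAT minus EFAT and 2 for SFAT minus BAT. Without the filter on low counts EFAT minus BAT had 18 calls, and by DESeq2 SFAT minus EFAT had 31 and SFAT minus BAT 2. EFAT minus BAT gave 6 to 16 calls without replicate 12, 14, 17, 18 or 20, and SFAT minus EFAT gave 1 without replicate 14, 2 without replicate 17 and 6 to 13 without replicate 12, 13 or 20.

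Other genes of mitochondrial translation were counted beside the shares of all genes for the diet in Cth-/- mice. Of all genes tested, 7.81% rose and 10.2% fell in BAT, and 11.8% rose and 13.6% fell in SFAT. In EFAT 14.5% of all genes rose and 14.3% fell. Of 15 translation factors, 5 rose and 0 fell in BAT, 7 rose and 0 fell in SFAT, and 1 rose and 2 fell in EFAT with the diet in Cth-/- mice. Tufm, the elongation factor that brings aminoacyl-tRNA, changed by 0.44 ± 0.10 in BAT and 0.53 ± 0.16 in SFAT. Gfm1, the translocation factor, changed by 0.37 ± 0.09 in BAT and 0.71 ± 0.16 in SFAT. In EFAT Tsfm, which recycles Tufm, changed by -0.997 ± 0.279 (adjusted p = 0.017). Of 26 assembly and rRNA modification genes 1 rose in BAT, 3 rose in SFAT and 2 fell in EFAT, among them Trub2, a pseudouridine synthase, at -1.62 ± 0.40. For these 26 genes the counts are near or under the shares of all genes. Ptcd3, a ribosome subunit with another name, rose in BAT (0.30 ± 0.10) and SFAT (0.55 ± 0.13). Dap3, Chchd1, Aurkaip1 and Gadd45gip1 were called in no depot, and neither was Ict1, at 0.21 ± 0.09 in BAT, 0.20 ± 0.14 in SFAT and -0.31 ± 0.13 in EFAT.

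Genes with symbols of nuclear respiratory chain subunits, whose mitochondrial partners this ribosome makes, rose for 3 of 76 in BAT and 56 in SFAT, with 1 falling in SFAT. The list was taken by symbol, so not every gene in it need be a subunit. The rises in BAT were those of Atp5sl, Atp5b and Uqcrc2, and the fall in SFAT that of Ndufa4l2. In EFAT 4 rose and 8 fell. The counts in BAT and EFAT are under the shares of all genes, of which 7.81% rose in BAT, and 14.5% rose and 14.3% fell in EFAT. In SFAT 11.8% of all genes rose. Their median log2 fold change was 0.24 in BAT, 0.67 in SFAT and -0.27 in EFAT, so the signs of the medians were those of the ribosomal genes. Cytosolic ribosomal proteins rose for 36 of 83 genes in EFAT and fell for 1, with a median of 0.29. They rose for 11 of 85 in SFAT and 1 of 85 in BAT. The rise in BAT was that of Rps2 (0.56 ± 0.14), and Rps24 fell there (-0.58 ± 0.17). Of 13 mitochondrially encoded genes 0 passed in BAT, 4 rose in SFAT and 0 passed in EFAT, with medians of -0.38, 1.25 and 0.83. Of 9 genes for transcription and replication of mitochondrial DNA, 2 rose in BAT, 4 in SFAT and 4 in EFAT. Tfb2m, a mitochondrial transcription factor, changed by 0.54 ± 0.10 in BAT, 0.65 ± 0.11 in SFAT and 0.46 ± 0.10 in EFAT. Ppargc1a, the coactivator of mitochondrial biogenesis, changed by 1.35 ± 0.23 in SFAT and by 1.58 ± 0.36 in EFAT.

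Calls with the diet in Cth-/- mice were counted by promoter motif, with no test. In BAT 0 of 12 genes with the YY1 letters rose, against 7 of 56 without them, and 0 of 7 with the NRF1 core, against 7 of 61. With the ETS letters 1 of 12 rose there, against 6 of 56. In SFAT 4 of 12 genes with the YY1 letters rose, against 18 of 56 without them. With the ETS letters 2 of 12 rose, against 20 of 56 without them, and with the NRF1 core 2 of 7, against 20 of 61. In EFAT 1 of 12 genes with the YY1 letters rose and 2 fell, and of 56 without them 2 rose and 10 fell. With the NRF1 core 0 of 7 fell there, against 12 of 61 without it, and with the ETS letters 3 of 12, against 9 of 56. These counts are descriptive, and the windows hold 300 bases per start site.

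Reads of 32 of the 77 members can be uncertain because their exons share bases with another gene, 8 on the same strand and 27 on the opposite strand, and for 18 the share was over 10%. Whether the counting used strand is not given in the sources used here. Mrpl18 lies opposite Tcp1 for 10.1% of its exon bases and Mrpl12 opposite Gm16755 for 13.1%. Mrps18a, Mrpl38, Mrpl45, Mrps2, Mrps14, Mrpl28, Mrpl20, Mrps23 and Mrps35 share none.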

How the data were processed

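Libraries were grouped by depot, genotype and diet as the labels give them. The authors deposited unscaled expected counts, estimated by RSEM, for each gene and library. Per the submitters' processing notes RSEM, STAR, Picard and FastQC were used on the mm10 build. The sources used here give neither tool versions nor the gene annotation behind the table. Of each library's values, 5.31 to 8.16% were not whole, and counts were rounded for the tests. Coordinates and exon lengths are GENCODE M21 (GRCm38), and promoters are RefSeq (GRCm38.p6).

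Genes were tested with edgeR 4.0.16 (quasi-likelihood F-test, TMM scaling, filterByExpr with minimum count 10 and minimum total 15; limma 3.58.1, R 4.3.3). Each depot was fitted on its 16 libraries in 4 groups, and depots were compared in 1 fit over the 48 libraries of all 12 groups. P-values are two-sided and Benjamini-Hochberg adjusted over all genes tested, with a threshold of 0.05. The fit was tested on simulated counts with 200 changed genes per comparison. DESeq2 1.42.0 was a second tool, and tables and plots were made in Python 3.11.15 (matplotlib 3.10.9, pandas 2.3.3, scipy 1.17.1). CPM values use a TMM-scaled library size, except marker sums, levels per kilobase and the Gm43512 limit, which use library totals. Other alternatives were RLE scaling, library totals, no filter, leaving out mitochondrially encoded genes or single libraries, the library set, a muscle covariate and a replicate block.

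Named were up to 4 called members per direction by size of change, given a mean level of 1 CPM or more, every called member where a comparison had few, a list of members of known role, and those called in several depots. Companion genes were chosen from the 3 largest changes per list, and not all of these are named. The members and lists were chosen with earlier results of these data known. Depth limits the precision of each value, and the fits' standard errors include it.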

Additional observations from a re-analysis of the deposited data

Results flagged for a closer look

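Among 46 groups of 4 libraries examined for a library far from the others of its group, 3 had one, where chance gives about 1 in 20 groups. In BAT of Cth-/- mice on CysF, replicate 20 had 17.3 CPM of Mrpl46, against 18.05 to 18.08 CPM in the other libraries, and 39.4 CPM of Mrpl18, against 48.6 to 50.1 CPM. That library was the one of its group in set B. In EFAT of Cth-/- mice on CysF, replicate 18 had 35.6 CPM of Mrps18a, against 31.3 to 31.8 CPM in the others. Without replicate 20 the calls in BAT remained within 1.5 times their number.

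The diet response differed between genotypes by a test of the interaction (edgeR, log2 scale). In BAT this held for Mrpl46 (0.50 ± 0.13). In SFAT it held for Mrps35 (1.03 ± 0.18), Mrpl12 (0.92 ± 0.30), Mrpl34 (0.87 ± 0.24) and Mrps27 (0.78 ± 0.14) among the members named. In EFAT it held for Mrps35 (0.84 ± 0.17), Mrpl38 (0.54 ± 0.13), Mrpl33 (-0.96 ± 0.24) and Mrpl49 (-0.60 ± 0.18). The call of Mrpl46 in BAT was lost in 11 of 25 alternatives. In SFAT calls were lost in 15 of 25 for Mrpl12, 2 for Mrpl34, 1 for Mrps27 and 0 for Mrps35. In EFAT they were lost in 16 of 23 for Mrpl49, 8 for Mrpl38, 7 for Mrpl33 and 2 for Mrps35. With the library set as a term none of the EFAT calls was left.

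The diet response of Cth-/- mice differed between depots by a test of the difference. For EFAT minus BAT it was 0.44 ± 0.12 for Mrpl38, -1.38 ± 0.32 for Mrpl20, -1.31 ± 0.39 for Mrpl53, -1.10 ± 0.24 for Mrpl18 and -1.09 ± 0.35 for Mrpl28. For SFAT minus BAT it was 0.61 ± 0.12 for Mrpl38. For SFAT minus EFAT it was 1.24 ± 0.29 for Mrpl12, 1.20 ± 0.32 for Mrpl20, 1.01 ± 0.30 for Mrps28 and 1.00 ± 0.24 for Mrpl18.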

How the results depend on the processing

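Of 72 named results that passed, 18 passed under every alternative run for them, and none changed sign. The 18 include Mrps35 in SFAT (diet, genotype on CysF and interaction), Mrps2 in SFAT with the diet, and Mrpl38, Mrps18a, Mrps9 and Mrps6 in SFAT by genotype on CysF. Of 349 recomputed medians 1 changed sign: SFAT minus BAT for the diet in Cth-/- mice was -0.14 with library totals, where the median of all genes was -0.21. Mrps18b, not called in BAT with the diet (-0.04), was at 0.44 within set A (adjusted p = 0.0063). The cause was not tested for any of the changes below.

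Counts of members called moved as follows. Library totals gave 0 in BAT for the diet in Cth-/- mice, 1 for genotype on CysF and 0 for the interaction. They gave 3, 9 and 2 in SFAT for the same comparisons, 8 in EFAT for the interaction, 29 for BAT minus SFAT and 34 for BAT minus EFAT. For the diet response between depots they gave 0 for SFAT minus BAT, 4 for EFAT minus BAT and 0 for SFAT minus EFAT. No filter gave 0 for the interaction in BAT, 11 for the diet in Cth-/- mice and 12 for the interaction in SFAT, 2 for the interaction in EFAT and 18 for EFAT minus BAT. DESeq2 gave 15 for the diet in Cth-/- mice, 7 for genotype on CTRL and 3 for the interaction in BAT, 1 for genotype on CTRL in SFAT, 14 for the interaction in EFAT, 2 for SFAT minus BAT and 31 for SFAT minus EFAT. The library set as a term gave 8 for genotype on CysF, 8 for genotype on CTRL and 2 for the interaction in BAT. It gave 7, 11 and 0 in EFAT for the diet in Cth-/- mice, genotype on CysF and the interaction, and 2, 16 and 12 for SFAT minus BAT, EFAT minus BAT and SFAT minus EFAT. The muscle covariate gave 2 in BAT for the diet in Cth-/- mice and 0 for genotype on CysF.

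Fits within a set were added after the data were seen. Set A gave 15, 9, 7 and 2 in BAT for the diet in Cth-/- mice, genotype on CysF, genotype on CTRL and the interaction, 41, 14, 15 and 13 in SFAT, and 0, 0 and 0 in EFAT for the diet in Cth-/- mice, genotype on CysF and the interaction. Set B gave 0 in BAT for the diet in Cth-/- mice, genotype on CysF and the interaction, 13 in SFAT for diet in Cth-/- mice, 3 for the diet in Cth+/+ mice and 18 for the interaction, and 0 in EFAT for the diet in Cth-/- mice. Without replicates 14 and 20, SFAT had 15 for the diet in Cth-/- mice. Some of these fits leave 1 library in a group, which is assumed to vary like the others.

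Leaving out single libraries gave 3 to 12 in BAT for the diet in Cth-/- mice, 0 for the diet in Cth+/+ mice, 2 to 7 for genotype on CysF, 0 to 1 for genotype on CTRL and 0 to 2 for the interaction. SFAT had 10 to 27, 0 to 1, 18 to 43, 0 and 14 to 48 in the same order, and EFAT 7 to 30, 0, 29 to 52, 0 and 1 to 20. BAT minus SFAT had 72 to 76, BAT minus EFAT 73 to 74 and SFAT minus EFAT 0, and the diet responses between depots 1 for SFAT minus BAT, 6 to 38 for EFAT minus BAT and 1 to 29 for SFAT minus EFAT.

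Libraries of different depots share replicate numbers, which the labels do not tie to animals. Over 48 pairs with the same number, deviations from group means correlated at -0.219 to 0.723 (median 0.331, 9018 genes), 32 pairs were over 0.1 and in 29 pairs a library correlated best with its own number, a hint from the data and not the design. With the replicate block SFAT minus BAT had 3 calls, SFAT minus EFAT 48 and EFAT minus BAT 38.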
